A study of Mus musculus with 9 samples.

Results

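The genes of mitochondrial fatty acid oxidation and of its control were followed in 3 preparations of mouse heart cells. A list of 38 genes was used, and a gene counted as measured where a probe of the array was annotated to it alone. This held for 35 of the 38 genes, out of 19933 genes measured in all. Acsl1, Acsl3 and Cpt1b had no such probe and were not analysed here. The preparations were embryonic cardiomyocytes sorted as positive for an Nkx-YFP reporter (CM), embryonic cardiac fibroblasts (EF) and adult cardiac fibroblasts (AF), each with 3 biological replicates on separate Affymetrix arrays. The series was made to look for factors of fibroblast origin that make myocytes divide. Strain, stage of the embryos, age of the adults, sex, the gating of the fibroblasts, any time in culture and any pooling of animals were not given in the sources used here.

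Long-chain fatty acids are activated to acyl-CoA, carried into mitochondria as carnitine esters and shortened there in repeated cycles of oxidation, hydration, oxidation and thiolysis. The electrons pass through the electron transfer flavoprotein to the respiratory chain, and the acetyl-CoA enters the tricarboxylic acid cycle. The adult heart draws most of its energy from this pathway, whereas the fetal heart relies more on glucose and lactate. The nuclear receptors of the PPAR and ERR families, with the coactivators PGC-1alpha and PGC-1beta, are known to drive the genes of the pathway in heart muscle.

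Most of the measured genes had their highest level in cardiomyocytes and a lower one in embryonic fibroblasts, and 16 of them were lower still in adult fibroblasts. At an adjusted p under 0.05 in limma, EF were below CM in 28 of the 35 genes, where 11.1% of all genes were, and above CM in 1, where 10.3% of all genes were. Against adult fibroblasts, 16 of 35 were higher in the embryonic ones (11.2% of all genes) and 2 were lower (8.34%). Adult fibroblasts were below cardiomyocytes in 27 of 35 genes (18.2% of all genes) and above them in 1 (17.4%). The calls reached at least 2-fold for 11 genes lower in EF than CM (2.47% of all genes), 13 higher in EF than AF (3.66%) and 21 lower in AF than CM (7.5%), and in the opposite directions for 0 (2.61%), 1 (2.51%) and 1 (5.79%). All 3 EF arrays lay below all 3 CM arrays for 30 of 35 genes (19.8% of all genes) and above them for 1 (19.3%). The median log2 difference of the 35 genes was -0.76 for EF minus CM, 0.43 for EF minus AF and -1.31 for AF minus CM. Over all genes these medians were -0.000, -0.044 and 0.058. The group with the highest mean was that of the cardiomyocytes for 30 of the 35 genes, where it was for 32.4% of all genes. Adult fibroblasts had the highest mean for the remaining 5, namely Acsl4, Slc22a5, Acads, Ppard and Ucp3 (48.3% of all genes), and embryonic fibroblasts for 0 (19.1%). The 3 comparisons share groups and are not independent of each other. In RNA from whole preparations, fewer cells of a type and less RNA per cell cannot be told apart.

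**Figure D1:**
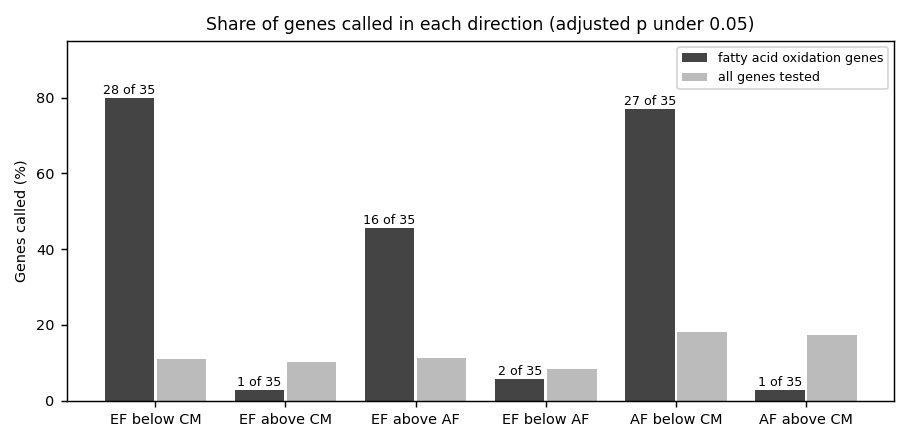
Bars give the percentage of genes called at an adjusted p under 0.05 in each direction, for the 35 fatty acid oxidation genes (dark) and all 19933 genes (light), in comparisons of embryonic cardiomyocytes (CM), embryonic fibroblasts (EF) and adult fibroblasts (AF). The dark bars exceed the light ones for EF below CM (28 of 35), EF above AF (16 of 35) and AF below CM (27 of 35), and lie below them in the opposite directions.

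The labels were set beside marker genes of the cell types. All 12 fibroblast markers, among them Dcn, Pdgfra and Tcf21, were higher in both fibroblast preparations than in cardiomyocytes. The embryonic fibroblast arrays also carried cardiomyocyte transcripts at a high level. The summed level of 12 cardiomyocyte markers (log2 of the sum of their linear values) was 16.47 to 16.54 in cardiomyocytes, 15.41 to 15.90 in embryonic fibroblasts and 11.89 to 12.59 in adult fibroblasts. All 12 were higher in embryonic than adult fibroblasts, with a median log2 difference of 3.14, and 9 of 12 were lower in EF than CM, with a median of -1.22. Tnnt2, the cardiac troponin T gene, stood at means of 13.82, 13.38 and 9.83 in CM, EF and AF. Macrophage markers were higher in embryonic fibroblasts than in cardiomyocytes in 8 of 12 cases and endothelial ones in 10 of 12, and their summed levels ran in EF from 11.94 to 12.46 and from 13.35 to 13.81. Between EF and AF, fibroblast markers were lower in EF in 6 of 12 cases and higher in 1, with summed levels of 14.00 to 14.25 in EF and 15.04 to 15.20 in AF. Macrophage markers were lower in EF than AF in 6 of 12 cases and higher in 0, and endothelial ones lower in 1 and higher in 2 of 12. Epicardial and mesothelial markers were higher in EF than AF in 5 of 8 cases and lower in 0. Those of smooth muscle and pericytes were higher in 4 and lower in 2 of 10. The 4 were Acta2, Tagln, Cnn1 and Des, and Acta2, Cnn1 and Des had their highest means in cardiomyocytes (12.02, 11.84 and 10.06). The 2 were Rgs5 and Myh11 (-2.29 and -1.02). Red cell markers were higher in EF than AF in 3 of 6 cases, namely Hbb-y, Hba-x and Hbb-bh1, and lower in 0. Their summed levels were 12.94 to 13.33 in CM, 11.80 to 11.89 in EF and 9.78 to 9.84 in AF. Hbb-y alone had means of 12.76, 11.32 and 6.52. Alas2, Slc4a1 and Epb42 were not called, with EF minus AF at 0.04, 0.04 and -0.01. Whether the groups differed in red cell content was not tested. Of 7 adipocyte markers 0 were called between the fibroblast groups, and Adipoq lay between 5.81 and 6.03 on all 9 arrays. Between EF and CM 1 of the 7 was called, namely Ucp1 (7.11 against 6.51). Among the adult arrays, replicate 3 correlated less with its group over all probes (mean r 0.970) than replicates 1 and 2 did (0.981). Transcripts of 3 Y-linked genes were at 7.84 to 9.33 on the embryonic arrays and at 4.67 to 6.87 on the adult ones. Age and sex therefore cannot be told apart between the fibroblast groups. Between adult fibroblasts and cardiomyocytes, cell type, age and sex cannot be told apart.

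Within the embryonic fibroblasts, most genes of the pathway shared their highest or lowest array with the cardiomyocyte markers. All 12 of those markers were highest on replicate 3 and lowest on replicate 2. Of the 35 fatty acid oxidation genes, 22 were highest on replicate 3 (62.9%, against 36.1% of all genes) and 24 were lowest on replicate 2 (68.6%, against 31.9% of all genes). The summed level of the 9 enzymes of the beta-oxidation cycle was 12.78, 12.56 and 13.10 on replicates 1 to 3, and that of the cardiomyocyte markers 15.69, 15.41 and 15.90. The cardiomyocyte arrays also shared an order. There, 24 of the 35 genes were highest on replicate 1 (68.6%, against 35.1% of all genes), as were 7 of the 12 markers. On replicate 3, 23 of the 35 were lowest (65.7%, against 42.5%), again with 7 of the 12 markers. Among adult fibroblasts the largest share was 42.9%, highest on replicate 2 (against 26.3% of all genes), as were 6 of the 12 markers. On adult replicate 1, 14 of the 35 genes were lowest (40%, against 32.1% of all genes), as were 6 of the 12 markers. The part of cardiomyocyte RNA in the values of the embryonic fibroblasts was not tested.

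**Figure D2:**
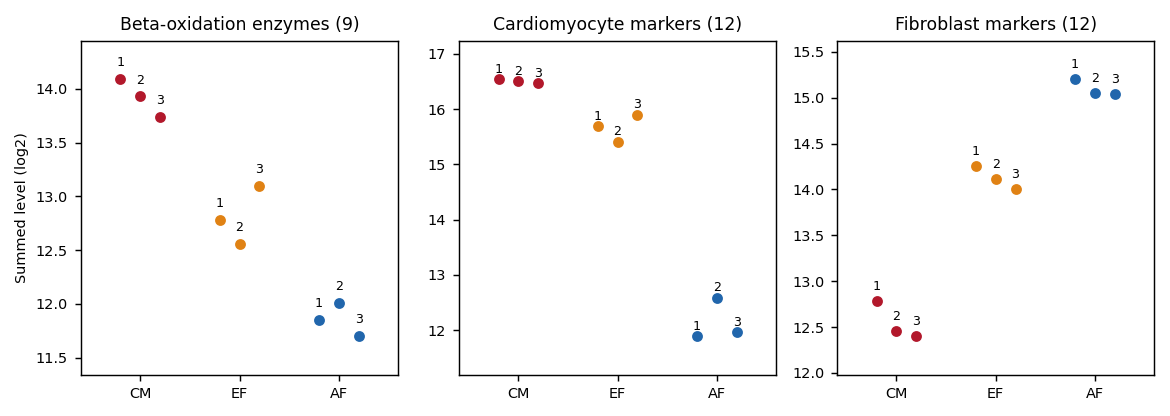
Each point is 1 array, numbered by replicate, and gives the summed level (log2 of the sum of linear RMA values) of 9 beta-oxidation enzymes, 12 cardiomyocyte markers and 12 fibroblast markers in embryonic cardiomyocytes (CM), embryonic fibroblasts (EF) and adult fibroblasts (AF). Each panel has its own vertical scale, which does not start at 0. In the EF arrays the enzymes and the cardiomyocyte markers are both highest on replicate 3 (13.10 and 15.90) and lowest on replicate 2 (12.56 and 15.41).

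Activation of fatty acids was represented by Acsl4, an acyl-CoA synthetase that prefers arachidonic acid, and it was the 1 measured gene called higher in EF than CM. Its RMA values (log2) were 9.70, 9.55 and 9.57 in cardiomyocytes, 10.47, 10.49 and 10.37 in embryonic fibroblasts and 11.79, 11.55 and 11.69 in adult fibroblasts. No 2 groups overlapped, and adult fibroblasts were the highest. It was 1.79-fold higher in EF than CM (log2 difference 0.84 ± 0.09, SE, n = 3 per group, limma adjusted p = 0.000257), 2.35-fold lower in EF than AF (-1.23 ± 0.09, adjusted p = 1.39e-05) and 4.2-fold higher in AF than CM (adjusted p = 2.64e-07).

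Of the 5 measured genes of the carnitine shuttle, 4 were lower in EF than CM, 0 were higher in embryonic than adult fibroblasts and 1 was lower there. Cpt1a encodes the liver form of carnitine palmitoyltransferase, the step that malonyl-CoA inhibits. Its values were 8.65, 8.35 and 8.44 in CM, 8.25, 8.15 and 8.18 in EF and 8.28, 8.38 and 8.09 in AF. The difference between EF and CM did not pass the test (-0.29 ± 0.10, adjusted p = 0.0849), although the arrays did not overlap. It passed without adult fibroblast replicate 3 (-0.29, adjusted p = 0.0414) and with array weights (-0.25, adjusted p = 0.0442).

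Cpt2, the matrix-side enzyme that turns acylcarnitine back into acyl-CoA, read 9.03, 9.48 and 8.93 in CM, 8.0, 8.07 and 8.27 in EF and 7.91, 7.91 and 8.27 in AF. Both fibroblast groups lay below the cardiomyocytes and overlapped with each other. It was 2.05-fold lower in EF than CM (-1.04 ± 0.16, adjusted p = 0.00181), and EF and AF differed by 0.08 ± 0.16 (adjusted p = 0.766). Crat, carnitine acetyltransferase, and Slc25a20, the acylcarnitine carrier of the inner membrane, shared this shape, at 1.76-fold and 1.7-fold lower in EF than CM (adjusted p = 0.00342 and 0.0108) with no call between the fibroblast groups.

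Slc22a5, the carnitine transporter of the plasma membrane, was lowest in embryonic fibroblasts. It read 7.72, 7.68 and 7.68 in CM, 6.95, 7.24 and 7.22 in EF and 7.86, 8.11 and 7.6 in AF. Embryonic fibroblasts lay below both other groups on all arrays, by -0.56 ± 0.13 against CM (adjusted p = 0.014) and by -0.72 ± 0.13 against AF (adjusted p = 0.00386). The call against CM was lost without cardiomyocyte replicate 1 or embryonic fibroblast replicate 1 (adjusted p from 0.0516 to 0.0592, differences from -0.54 to -0.46). AF and CM overlapped (0.17 ± 0.13, adjusted p = 0.368).

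**Figure D3:**
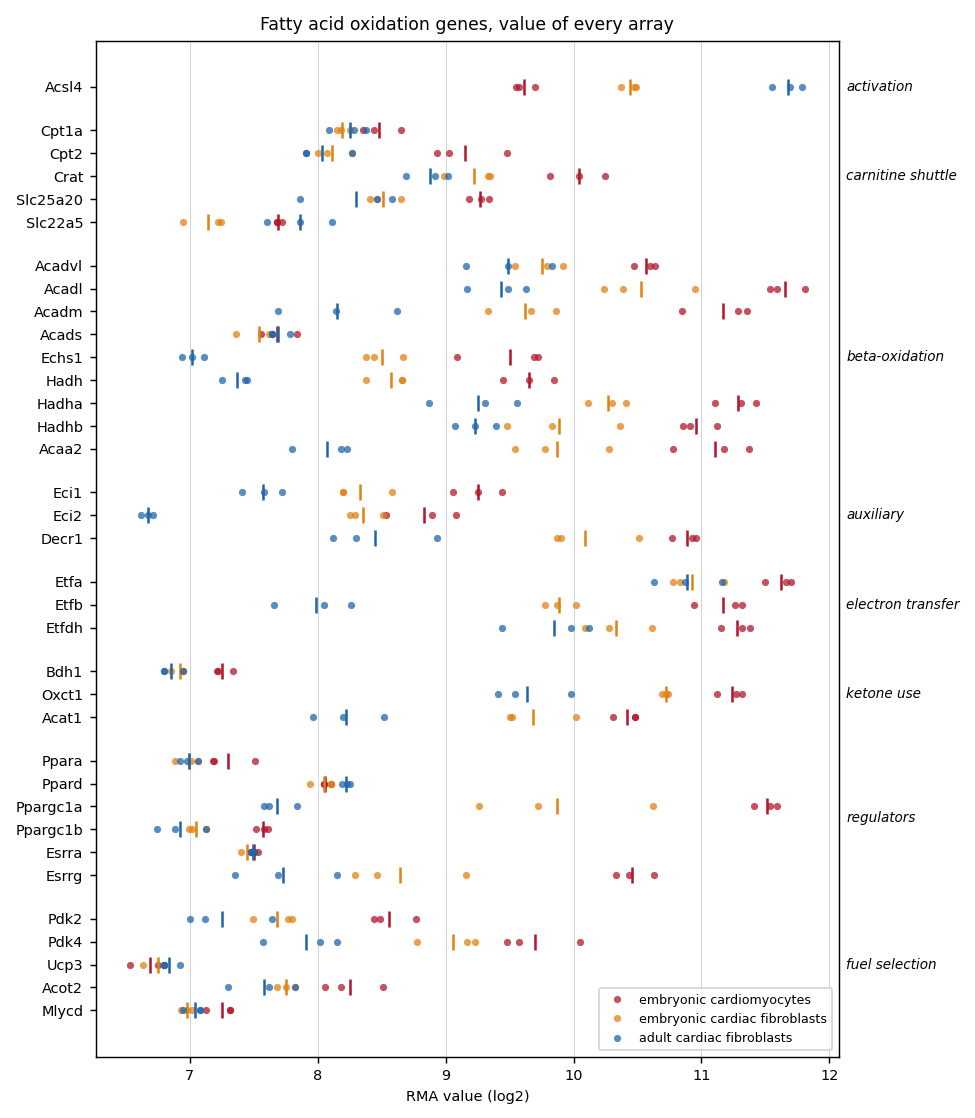
Points give the RMA value (log2) of every array for the 35 measured genes, grouped by role, and vertical ticks the means of the 3 arrays of embryonic cardiomyocytes (red), embryonic cardiac fibroblasts (orange) and adult cardiac fibroblasts (blue). For most enzymes the red points are the highest, while Acsl4 rises from 9.61 in cardiomyocytes to 11.68 in adult fibroblasts. Levels of different genes come from different probes and are not comparable with each other.

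In the beta-oxidation cycle, 8 of 9 enzymes were lower in EF than CM and 7 of 9 were higher in embryonic than adult fibroblasts, with median log2 differences of -1.07 and 1.10. Acadm, the medium-chain acyl-CoA dehydrogenase, read 11.36, 11.29 and 10.85 in CM, 9.67, 9.33 and 9.86 in EF and 8.14, 8.62 and 7.69 in AF. No groups overlapped, with cardiomyocytes highest and adult fibroblasts lowest. It was 2.92-fold lower in EF than CM (-1.54 ± 0.24, adjusted p = 0.00174) and 2.78-fold higher in EF than AF (1.47 ± 0.24, adjusted p = 0.00201).

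The dehydrogenases for other chain lengths did not all share that pattern. Acadl, for long chains, read 11.81, 11.54 and 11.59 in CM, 10.39, 10.24 and 10.95 in EF and 9.17, 9.63 and 9.49 in AF, again in order and with no overlap (EF against CM -1.12 ± 0.19, adjusted p = 0.0026; EF against AF 1.10 ± 0.19, adjusted p = 0.00279). Acadvl, for very long chains, was lower in EF than CM (-0.82 ± 0.16, adjusted p = 0.00616), but its embryonic values of 9.79, 9.54 and 9.92 overlapped with the adult ones of 9.83, 9.49 and 9.16 (0.26 ± 0.16, adjusted p = 0.325). Acads, for short chains, stayed between 7.36 and 7.84 on all 9 arrays and was called in 0 of 3 comparisons (adjusted p from 0.384 to 0.955). Its mean level lay at the 46.9th percentile of all genes, and whether its probe could have shown a difference was not tested.

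For the later steps of the cycle the cardiomyocytes were again the highest and the adult fibroblasts the lowest. Acaa2, the thiolase that releases acetyl-CoA, read 11.37, 11.18 and 10.78 in CM, 9.78, 9.54 and 10.28 in EF and 7.80, 8.23 and 8.18 in AF. These groups did not overlap, and adult fibroblasts were 8.22-fold below cardiomyocytes (-3.04 ± 0.21, adjusted p = 4.64e-06). Echs1, the short-chain enoyl-CoA hydratase, was 2-fold lower in EF than CM (-1.0 ± 0.16, adjusted p = 0.00229) and 2.78-fold higher in EF than AF (1.48 ± 0.16, adjusted p = 0.000236). Hadh, the short-chain hydroxyacyl-CoA dehydrogenase, moved likewise by -1.08 ± 0.12 (adjusted p = 0.000395) and 1.19 ± 0.12 (adjusted p = 0.000154).

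Hadha and Hadhb encode the alpha and beta subunits of the trifunctional protein, which carries out the last steps of the cycle for long chains. Hadha read 11.43, 11.31 and 11.11 in CM, 10.30, 10.11 and 10.41 in EF and 9.31, 9.56 and 8.87 in AF. Hadhb read 11.12, 10.91 and 10.86, then 9.83, 9.48 and 10.36, then 9.23, 9.39 and 9.07. For both genes the groups were in order with no overlap, although the lowest embryonic fibroblast array of Hadhb was close to the highest adult one. In EF they were lower than in CM by similar amounts (-1.01 ± 0.17 for Hadha and -1.07 ± 0.20 for Hadhb, adjusted p = 0.00251 and 0.00399). Against AF, Hadha was higher by 1.02 ± 0.17 (adjusted p = 0.00222) and Hadhb by 0.66 ± 0.20 (adjusted p = 0.0436). The Hadhb call was lost when any array other than embryonic fibroblast replicate 2 was left out (adjusted p from 0.0572 to 0.0964), with a difference of 0.42 without embryonic fibroblast replicate 3. It was also lost with the replicate number as a block (adjusted p = 0.0675), median centring (0.0568), array weights (0.0661) and only the fibroblast groups fitted (0.109). A further probe of Hadhb gave differences of -1.09 and 0.63.

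The genes of the trifunctional protein are neighbours read in opposite directions, with 273 bases between their annotated starts (RefSeq, GRCm38.p6). The last 150 bases before the start of Hadhb, all between the starts, are shown because this stretch lies upstream of both genes of the pair (chr5:30155103-30155252, plus strand). Capitals mark matches to GGGCGG (both strands searched), of which there are 2, and 35.7% of all promoters of 300 bases in the table hold a match.
Hadha to Hadhb: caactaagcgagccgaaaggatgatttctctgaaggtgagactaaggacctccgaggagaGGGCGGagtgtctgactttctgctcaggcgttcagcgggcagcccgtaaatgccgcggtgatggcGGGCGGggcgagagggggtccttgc

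All 3 auxiliary enzymes for unsaturated fatty acids were lower in EF than CM and higher in embryonic than adult fibroblasts. The larger differences were those between the fibroblast groups for Eci2, an enoyl-CoA isomerase, and Decr1, the dienoyl-CoA reductase. Eci2 read 9.08, 8.89 and 8.53 in CM, 8.25, 8.29 and 8.51 in EF and 6.62, 6.71 and 6.67 in AF. The embryonic groups nearly met, and the adult arrays lay far below. It was 3.22-fold higher in EF than AF (1.69 ± 0.13, adjusted p = 3.21e-05) and 1.4-fold lower in EF than CM (-0.48 ± 0.13, adjusted p = 0.0304). Decr1 was 3.12-fold higher in EF than AF (1.64 ± 0.22, adjusted p = 0.00081) and 1.73-fold lower in EF than CM (-0.79 ± 0.22, adjusted p = 0.0326). The calls against CM were lost without cardiomyocyte replicate 1 or 2 or embryonic fibroblast replicate 1 or 2 (Eci2, adjusted p from 0.103 to 0.111) and also without cardiomyocyte replicate 3 for Decr1 (adjusted p from 0.0629 to 0.123), and for Eci2 with the replicate block (adjusted p = 0.0551). Eci1, the other isomerase, differed by -0.92 ± 0.14 from CM (adjusted p = 0.00162) and by 0.76 ± 0.14 from AF (adjusted p = 0.00425).

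The 3 genes of electron transfer were lower in EF than CM, but 1 of 3 was called between the fibroblast groups. This was Etfb, the beta subunit of the electron transfer flavoprotein, at 11.32, 11.26 and 10.94 in CM, 10.02, 9.78 and 9.87 in EF and 8.05, 8.26 and 7.66 in AF. It fell in steps with no overlap, to 9.07-fold lower in AF than CM (-3.18 ± 0.16, adjusted p = 6.89e-07), and was 3.73-fold higher in EF than AF (1.90 ± 0.16, adjusted p = 4.2e-05).

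Etfa, which encodes the partner subunit of the same heterodimer, read 11.66, 11.50 and 11.70 in CM, 10.83, 10.78 and 11.18 in EF and 10.87, 10.63 and 11.16 in AF. The fibroblast groups overlapped throughout (0.04 ± 0.15, adjusted p = 0.87), and both lay below the cardiomyocytes (EF -0.69 ± 0.15, adjusted p = 0.0101; AF -0.73 ± 0.15, adjusted p = 0.00392). Etfdh, the oxidoreductase that passes the electrons on to ubiquinone, was 1.94-fold lower in EF than CM (adjusted p = 0.00581) and did not pass the test between EF and AF (0.48 ± 0.19, adjusted p = 0.114).

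All 3 genes of ketone body use were lower in EF than CM, and 2 of 3 were higher in EF than AF. Oxct1, the transferase that commits acetoacetate to oxidation, read 11.27, 11.32 and 11.12 in CM, 10.72, 10.69 and 10.74 in EF and 9.41, 9.54 and 9.98 in AF. The groups did not overlap, and the embryonic fibroblast arrays were nearly equal. The log2 difference was -0.52 ± 0.13 between EF and CM (adjusted p = 0.0216) and 1.08 ± 0.13 between EF and AF (adjusted p = 0.000488). Acat1, the acetoacetyl-CoA thiolase, was 1.67-fold lower in EF than CM (-0.74 ± 0.17, adjusted p = 0.013) and 2.74-fold higher in EF than AF (1.46 ± 0.17, adjusted p = 0.000339). Bdh1, the hydroxybutyrate dehydrogenase, was measured at low values from 6.80 to 7.34 and was 1.26-fold lower in EF than CM (adjusted p = 0.0132), with no call between EF and AF (adjusted p = 0.626). The calls of Oxct1 and Acat1 against CM were lost without cardiomyocyte replicate 1 or 2 or embryonic fibroblast replicate 1 or 2 (adjusted p from 0.0663 to 0.0835 and from 0.052 to 0.0582), and that of Bdh1 without embryonic fibroblast replicate 2 (adjusted p = 0.06). After quantile normalization the call of Oxct1 was lost too (adjusted p = 0.0602).

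**Figure D4:**
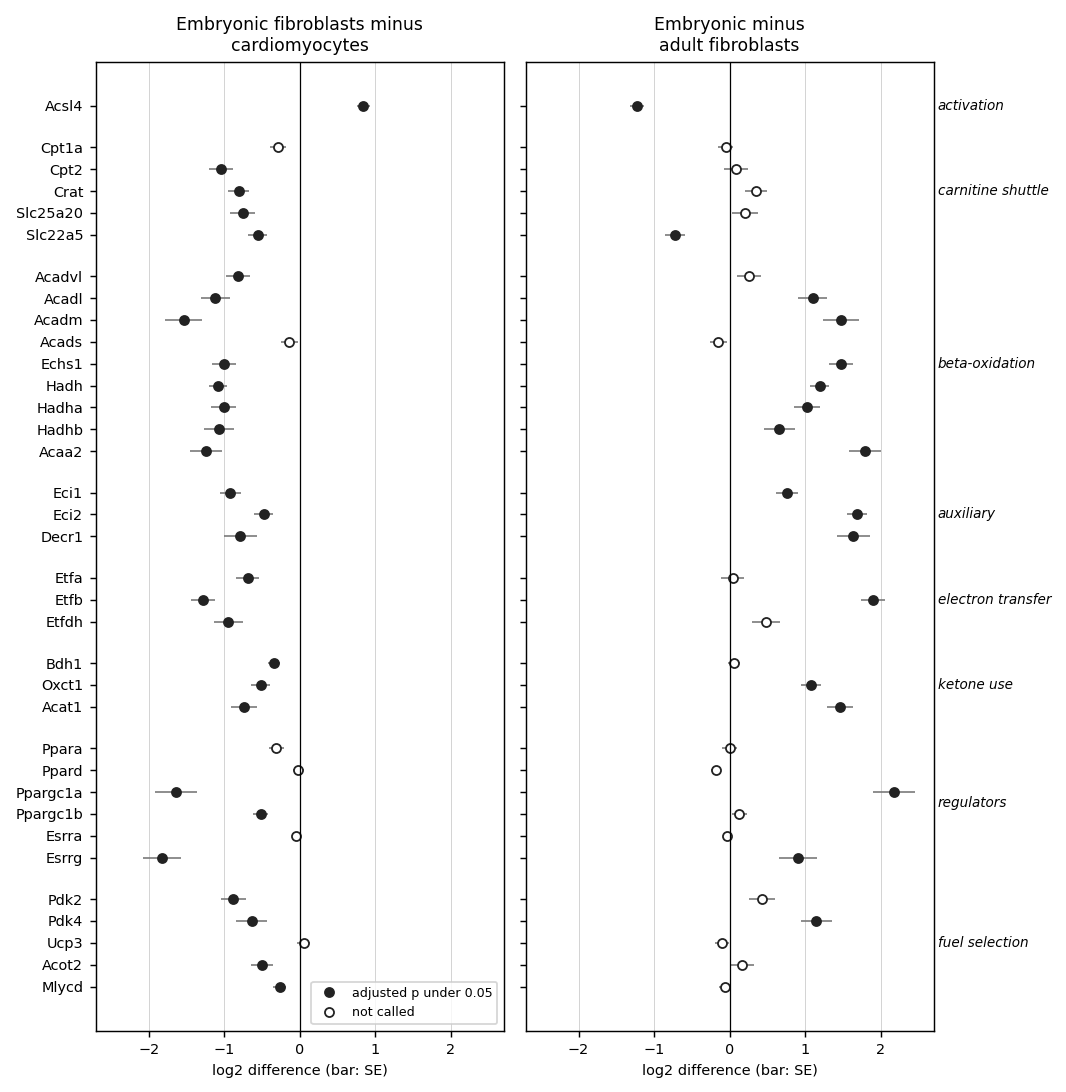
Points give the log2 difference of each of the 35 genes and bars its standard error, for embryonic fibroblasts minus cardiomyocytes (left) and embryonic minus adult fibroblasts (right); filled points had an adjusted p under 0.05 in limma. Both panels use the same embryonic fibroblast arrays. On the left 28 filled points lie below 0, and on the right 16 lie above it, with Cpt1a (-0.05), Cpt2 (0.08) and Etfa (0.04) near 0 on the right.

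Among the transcriptional regulators, 3 of 6 were lower in EF than CM and 2 of 6 were higher in embryonic than adult fibroblasts. Ppargc1a encodes the coactivator PGC-1alpha. It read 11.54, 11.59 and 11.41 in CM, 9.72, 9.26 and 10.62 in EF and 7.58, 7.84 and 7.62 in AF. The groups did not overlap, and embryonic fibroblast replicate 3 stood well above the other arrays of its group. Ppargc1a was 3.13-fold lower in EF than CM (-1.64 ± 0.28, adjusted p = 0.00271), 4.55-fold higher in EF than AF (2.18 ± 0.28, adjusted p = 0.000517) and 14.2-fold lower in AF than CM (-3.83 ± 0.28, adjusted p = 5.31e-06). A further probe of the gene gave differences of -2.0, 1.70 and -3.70.

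Esrrg, the estrogen-related receptor gamma, read 10.43, 10.63 and 10.33 in CM, 8.46, 8.29 and 9.16 in EF and 8.15, 7.35 and 7.69 in AF. The cardiomyocytes lay far above both fibroblast groups, which were separated by a small gap. It was 3.55-fold lower in EF than CM (-1.83 ± 0.25, adjusted p = 0.00093) and 1.88-fold higher in EF than AF (0.91 ± 0.25, adjusted p = 0.0302). The call against AF was lost without cardiomyocyte replicate 1, embryonic fibroblast replicate 1 or 3, or adult fibroblast replicate 2 or 3 (adjusted p from 0.0524 to 0.0974, differences from 0.65 to 0.99), with array weights (adjusted p = 0.0659) and with only the fibroblast groups fitted (adjusted p = 0.0898).

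The related receptor Esrra (alpha) stayed between 7.4 and 7.53 on all 9 arrays, at the 42.1st percentile of mean level, and differed by -0.05 ± 0.06 between EF and CM (adjusted p = 0.676). The difference Esrrg minus Esrra within an array had a mean of 2.96 ± 0.17 (SD, n = 3) in CM, 1.18 ± 0.51 in EF and 0.24 ± 0.39 in AF. Its change of -1.77 between EF and CM gave p = 0.10 in a two-sided exact permutation test, the smallest value that 3 against 3 arrays allow. The changes of 0.94 between EF and AF and of -2.72 between AF and CM gave the same p. The test could therefore not reach 0.05, and the values do not show which receptor was more abundant. Since Esrra hardly varied, these changes nearly repeat the differences of Esrrg alone (-1.83, 0.91 and -2.73) and are no separate result. The mean of Esrra (7.48) lay above the 30th percentile of all probes (6.909), below which genes were counted as dim. Ppargc1b, with a lower mean of 7.18, was called between EF and CM. Levels of different probes are not comparable, so that call does not show what the probe of Esrra could detect. Whether the probe of Esrra could have shown a difference was not tested.

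Ppara and Ppard, the PPAR genes of the list, were called in 1 of their 6 comparisons together. Ppara, the receptor best known for switching on this pathway, read 7.51, 7.18 and 7.19 in CM, 6.88, 7.06 and 7.01 in EF and 6.92, 6.98 and 7.06 in AF. Cardiomyocytes lay above both fibroblast groups by about the same amount, with -0.31 ± 0.10 for EF (adjusted p = 0.0653) and -0.31 ± 0.10 for AF (adjusted p = 0.0442). The AF call was lost without cardiomyocyte replicate 1, any embryonic fibroblast replicate, or adult fibroblast replicate 1 or 2 (adjusted p from 0.0544 to 0.135), with a difference of -0.20 without cardiomyocyte replicate 1, and with the replicate block (adjusted p = 0.0801), median centring (0.054) and only the groups compared (0.0795). The EF difference passed with array weights (-0.28, adjusted p = 0.0397). Ppard, the delta receptor, ranged from 7.94 to 8.25 and was called in 0 of 3 comparisons (adjusted p from 0.128 to 0.907). After quantile normalization Ppard was called higher in AF than in CM (0.22, adjusted p = 0.0375) and lower in EF than AF (-0.24, adjusted p = 0.0379). Ppargc1b, which encodes PGC-1beta, was 1.43-fold lower in EF than CM (-0.52 ± 0.10, adjusted p = 0.00612) and was not called between EF and AF (0.13 ± 0.10, adjusted p = 0.437).

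**Figure D5:**
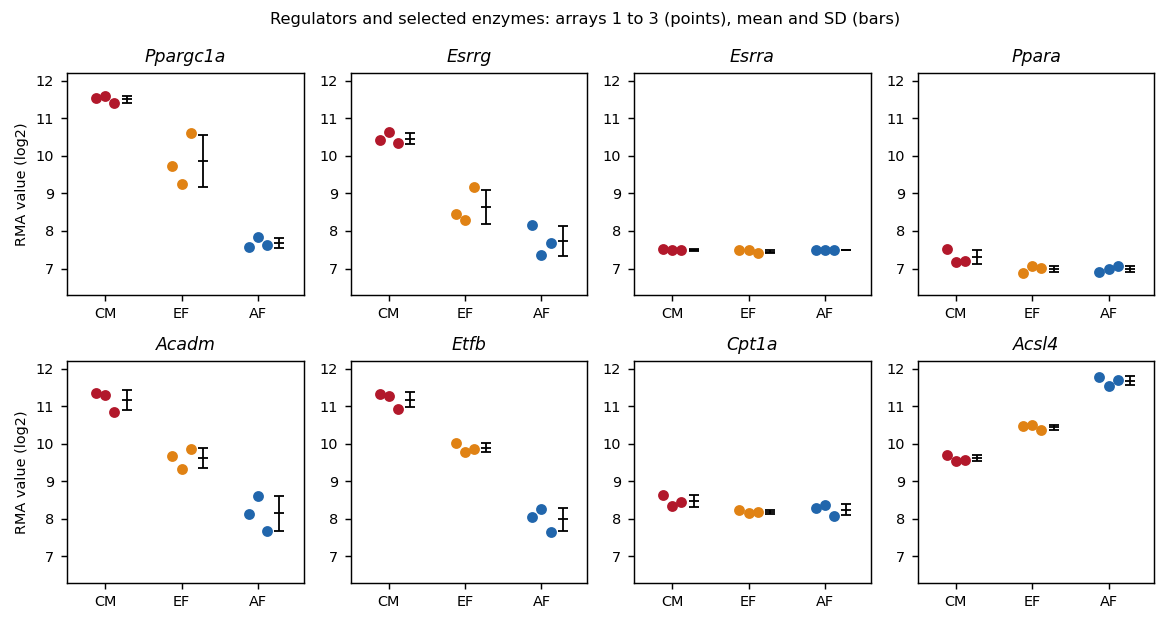
Points give the RMA values (log2) of replicates 1 to 3, from left to right, in embryonic cardiomyocytes (CM), embryonic fibroblasts (EF) and adult fibroblasts (AF), and bars the mean and SD of 3 arrays, on a common vertical scale that does not start at 0. Ppargc1a, Esrrg, Acadm and Etfb are highest in CM and lowest in AF, Acsl4 is highest in AF, and Esrra stays between 7.4 and 7.53.

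The promoters of these genes (250 bases before to 50 after the annotated start, RefSeq, GRCm38.p6) were searched for motifs of the regulators on both strands, and 32 of the 38 genes had an entry. The extended ERR motif TNAAGGTCA was found in 0 of the 32, where 1.43% of all genes with an entry hold it. The direct repeat bound by PPAR with its partner RXR was also found in 0, where 0.0481% of genes hold it. With motifs this rare, 0 matches in 32 genes could be reached without any difference from other genes. The search covered exact letters in 300 bases and cannot show whether PPAR or ERR sites are absent. The shorter core AAGGTCA, which lies within the ERR motif, was found in 1 gene, Acadm, where 5.38% of all genes with an entry hold it. The palindromic motif of the nuclear respiratory factor NRF1 was found in 4 genes, Etfb, Etfdh, Slc22a5 and Ppara (5.19% of all genes with an entry). CCGGAAGT, a motif of GABP, was found in 2, Cpt2 and Slc25a20 (4.31% of all genes with an entry). A match is a description of letters and not a binding site. The 5 stretches below are each 100 bases long, end before or at the annotated start and carry the match in capitals. They are shown because Acadm and Etfb had the largest differences between EF and CM in their groups, while Etfdh, Cpt2 and Slc25a20 were called between CM and both fibroblast groups but not between EF and AF. The regions are chr3:153944794-153944893 (minus strand) for Acadm, chr7:43443972-43444071 (plus) for Etfb, chr3:79628841-79628940 (minus) for Etfdh, chr4:107923590-107923689 (minus) for Cpt2 and chr9:108662011-108662110 (plus) for Slc25a20.
Acadm: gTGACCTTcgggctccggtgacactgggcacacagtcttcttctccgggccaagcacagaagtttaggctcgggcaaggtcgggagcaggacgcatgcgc
Etfb: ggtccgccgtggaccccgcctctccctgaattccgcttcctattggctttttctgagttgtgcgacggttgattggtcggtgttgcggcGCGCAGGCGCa
Etfdh: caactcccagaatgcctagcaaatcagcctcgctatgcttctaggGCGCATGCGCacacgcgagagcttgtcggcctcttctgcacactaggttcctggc
Cpt2: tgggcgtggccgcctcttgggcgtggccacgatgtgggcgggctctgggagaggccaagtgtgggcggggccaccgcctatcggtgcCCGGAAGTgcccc
Slc25a20: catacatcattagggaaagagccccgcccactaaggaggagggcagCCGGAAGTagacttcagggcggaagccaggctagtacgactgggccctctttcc

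Of the 5 genes of fuel selection, 4 were lower in EF than CM and 1 was higher in EF than AF. Pdk4 and Pdk2 encode kinases that shut off pyruvate dehydrogenase and so spare glucose when fat is burnt. Pdk4 read 10.05, 9.57 and 9.48 in CM, 9.23, 8.78 and 9.17 in EF and 8.02, 8.15 and 7.57 in AF. Its groups did not overlap, and it was 2.22-fold higher in EF than AF (1.15 ± 0.20, adjusted p = 0.00301). The lower level in EF than CM (-0.64 ± 0.20, adjusted p = 0.0485) lost its call without any cardiomyocyte or embryonic fibroblast replicate and without adult fibroblast replicate 1 (adjusted p from 0.0525 to 0.176), and with median centring (0.0551) or a trended robust prior (0.0517). Pdk2 was 1.84-fold lower in EF than CM (-0.88 ± 0.17, adjusted p = 0.00566) and did not pass between EF and AF (0.43 ± 0.17, adjusted p = 0.125), where it passed without adult fibroblast replicate 3 (0.62, adjusted p = 0.00732) and with array weights (0.53, adjusted p = 0.0128).

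Acot2, a mitochondrial acyl-CoA thioesterase, and Mlycd, the decarboxylase that removes malonyl-CoA, were lower in EF than CM by small amounts (-0.50 ± 0.15 and -0.27 ± 0.08, adjusted p = 0.0417 and 0.0375). Both calls were lost without cardiomyocyte replicate 1 or 2, without any embryonic fibroblast replicate, and without adult fibroblast replicate 2 (Acot2, adjusted p from 0.0576 to 0.145) or 1 (Mlycd, adjusted p from 0.0516 to 0.129), for Mlycd with the replicate block (adjusted p = 0.0627), and for Acot2 with median centring (0.0509) or quantile normalization (0.0589). Mlycd was not called between AF and CM (-0.21 ± 0.08, adjusted p = 0.064), where it passed without cardiomyocyte replicate 3 (-0.27, adjusted p = 0.0311), with array weights (0.0276), after quantile normalization (0.0335) and with a trended robust prior (0.0487). Ucp3, a carrier of the uncoupling protein family, lay between 6.53 and 6.92 on all arrays, at the 23.0th percentile of mean level, and was called in 0 of 3 comparisons (adjusted p from 0.258 to 0.783).

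Other mitochondrial pathways of the same cells were set beside these genes. For the counts of these and the following lists, 11.1% of all genes were lower and 10.3% higher in EF than CM. Between EF and AF, 11.2% of all genes were higher and 8.34% lower in EF. Of 16 measured genes of the tricarboxylic acid cycle, 14 were lower in EF than CM and 11 were higher in EF than AF, with medians of -0.98 and 1.21. Idh2, the mitochondrial isocitrate dehydrogenase, showed a 9.37-fold difference between the fibroblast groups (3.23 ± 0.12, adjusted p = 4.94e-07). In the breakdown of branched-chain amino acids 11 of 12 genes were lower in EF than CM and 6 were higher in EF than AF (medians -0.82 and 0.42). Genes of mitochondrial import, pores and DNA maintenance moved less, with 5 of 17 lower in EF than CM, 4 higher and 2 lower in EF than AF, and medians of -0.27 and 0.01.

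Of 16 other mitochondrial genes of fatty acid metabolism, 8 were lower and 1 higher in EF than CM, and 5 were higher and 1 lower in EF than AF (medians -0.38 and 0.05). Peroxisomal beta-oxidation, which shortens very long and branched chains, had 6 of 14 genes lower and 0 higher in EF than CM, and 2 higher and 0 lower in EF than AF (medians -0.39 and 0.13). Hsd17b4, its bifunctional enzyme, was 1.75-fold higher in EF than AF (adjusted p = 0.000427). Among genes of pyruvate dehydrogenase and its control, 8 of 11 were lower and 1 higher in EF than CM, and 3 were higher and 0 lower in EF than AF (medians -0.70 and 0.26). The kinase genes Pdk1 (-1.45 ± 0.11, adjusted p = 7.27e-05) and Pdk3 (-1.17 ± 0.20, adjusted p = 0.00272) led that list between EF and CM. In the malonyl-CoA and AMPK list, 4 of 10 genes were lower and 2 higher in EF than CM, and 3 were higher and 0 lower in EF than AF, with Prkaa2, a catalytic subunit of AMP-activated kinase, 4.77-fold lower in EF than CM (adjusted p = 0.00049).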

How the data were processed

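Each of the 9 samples was hybridised to an Affymetrix mouse Gene 1.0 ST array; titles gave group and replicate number. RMA values came from the authors, per the submitters' processing notes, and these deposited values were read as log2 from their range (2.70 to 14.20). RMA version, genome build and probe annotation were not given in the sources used here, and RMA keeps no background per probe. Only the 21776 probes (of 28767) that the platform annotation ties to 1 gene were used, and a gene with several probes took the brightest by mean. Hadhb and Ppargc1a had 2 probes each, and 0 of the 35 genes had values identical to those of another probe.

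Group means of all 19933 genes over 9 arrays were compared with limma 3.58.1 (R 4.3.3; lmFit, eBayes; median 9.21 degrees of freedom). The two-sided p-values were adjusted by Benjamini-Hochberg over all genes and called under 0.05. Errors are the SE of the fit or the SD of 3 arrays, whose number limits the precision. The fit was tested on simulated data. The genes, lists and tests were chosen with earlier results of these data known. All measured genes of the list may be named, and of related lists up to 2 called genes with the largest difference per comparison, with any marker. The planned naming of genes that correlate with Ppargc1a and Esrrg is left out, since the arrays fall into 3 clusters, and the planned ratios of Cpt1b to Cpt1a and Acsl1 to Acsl4 could not be formed. Other settings were a replicate block, median centring, quantile normalization, no dim genes (5265 genes, mean below the 30th percentile of all probes), the mean of all probes, only the groups compared, array weights, a trended robust prior, and each array left out. Promoters came from RefSeq (GRCm38.p6); the AAGGTCA, NRF1, CCGGAAGT and GGGCGG motifs were added after the data had been seen. Plots were made in matplotlib 3.10.9 (Python 3.11.15).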

Additional observations from a re-analysis of the deposited data

How the results depend on the processing

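Of the 75 calls of single genes in the 3 comparisons, 63 held under every alternative that was run and tested that gene. EF were below CM in 28 genes, and in 20 to 29 with 1 array left out; EF were above AF in 16, and in 14 to 16; AF were below CM in 27, and in 26 to 28. After quantile normalization 2 genes, not 1, were higher in AF than CM. The replicate numbers were not stated to pair the samples. Deviations of same-numbered arrays correlated between -0.195 and 0.198, 3 of 9 pairs were over 0.1, and the best match was the own number in 6 of 18 cases. With 3 arrays per group, these values cannot show that same-numbered arrays shared no batch. With the replicate number as a block the counts of EF below CM, EF above AF and AF below CM were 26, 15 and 26. Signs turned only for differences near 0 that were called in neither setting. For Acads (AF minus CM) the difference was -0.01 with array weights and -0.05 to 0.09 with 1 array left out. For Ppara (EF minus AF) it was 0.03 after quantile normalization, 0.04 with array weights and -0.04 to 0.05 with 1 array left out, and for Ppard (EF minus CM) 0.01 with array weights and -0.05 to 0.03. With 1 array left out, EF minus AF ran from -0.13 to 0.01 for Cpt1a, from -0.02 to 0.34 for Slc25a20 and from -0.09 to 0.18 for Etfa, and EF minus CM from -0.03 to 0.11 for Ucp3, which was not tested without dim genes. The cause of these changes was not tested.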

Other observations

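Of 11 measured PPAR target genes outside the list, 3 were lower and 0 higher in embryonic fibroblasts than in cardiomyocytes (11.1% and 10.3% of all genes). Between embryonic and adult fibroblasts, 1 was higher and 2 lower in the embryonic ones (11.2% and 8.34% of all genes). Fabp3, the fatty acid binding protein of heart muscle, was 3.24-fold lower in embryonic fibroblasts than in cardiomyocytes (limma adjusted p = 0.000944) and 5.24-fold higher than in adult ones (adjusted p = 0.000106). The fatty acid transporter gene Cd36 differed 4.03-fold between the fibroblast groups, lower in the embryonic ones (-2.01 ± 0.32, adjusted p = 0.00196), with means of 10.45, 9.33 and 11.35 in cardiomyocytes, embryonic and adult fibroblasts. Plin2, which coats lipid droplets, was 3.28-fold higher in adult fibroblasts than in cardiomyocytes (adjusted p = 0.00994). Lpl, lipoprotein lipase, was lower in embryonic fibroblasts than in cardiomyocytes (-1.14 ± 0.15, adjusted p = 0.000866), with an adult mean of 10.30 against 10.46 in cardiomyocytes.

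Among 14 partners of the PPAR and ERR receptors, 2 were higher and 2 lower in embryonic fibroblasts than in cardiomyocytes (10.3% and 11.1% of all genes). Between embryonic and adult fibroblasts, 1 was higher and 2 were lower in the embryonic ones (11.2% and 8.34% of all genes). In adult fibroblasts, 4 were higher and 2 lower than in cardiomyocytes (17.4% and 18.2% of all genes). The median log2 differences of the list were -0.02, -0.02 and 0.04. Pparg, the receptor that drives fat storage, was 2.98-fold higher in adult fibroblasts than in cardiomyocytes (1.57 ± 0.21, adjusted p = 0.000232) and 2.04-fold higher there than in embryonic ones (adjusted p = 0.0066). Pprc1, a relative of the PGC-1 coactivators, had means of 8.44, 9.06 and 9.68 in cardiomyocytes, embryonic and adult fibroblasts, the opposite order to Ppargc1a (adult fibroblasts against cardiomyocytes 1.23 ± 0.11, adjusted p = 1.58e-05). Nrip1, a corepressor of nuclear receptors, was 1.63-fold higher in embryonic fibroblasts than in cardiomyocytes (adjusted p = 0.00122). The adult arrays also carried more macrophage RNA markers, at a summed level of 12.72 to 13.54 against 11.25 to 11.37 in cardiomyocytes. Fibroblast markers (15.04 to 15.20 against 12.40 to 12.78) and endothelial ones (12.59 to 13.76 against 12.02 to 12.48) were higher there too. Summed levels of cardiomyocyte, red cell, and smooth muscle and pericyte markers were lower. The part of any of these cell types in the values above was not tested.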
